A study of Drosophila melanogaster with 12 samples.

Results

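The nuclear genes for subunits of respiratory chain complexes I, III, IV and V (the ATP synthase) were followed in heads of Drosophila melanogaster. Genes were taken by symbol: ND- for complex I, UQCR- for complex III, COX with a digit for complex IV and ATPsyn for complex V. Of 10756 genes with a probe set of their own on both array designs of the study, 59 met this rule, 30 for complex I, 4 for complex III, 11 for complex IV and 14 for complex V. Among the 59 are 14 duplicates, genes whose symbol is a subunit name with an added L (COX4L, ND-51L1), which leaves 45 subunit genes in the strict sense. None of the 59 lies on the mitochondrial genome.

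The study measured total RNA of fly heads on 12 Affymetrix arrays, with the aim, by its title, of finding targets of the clock transcription factor CLK. All flies carried CLKGR, generally understood as CLK joined to the steroid-binding domain of a glucocorticoid receptor, so that dexamethasone (DEX) switches it on. Every sample, vehicle included, also received cycloheximide (CHX), a blocker of protein synthesis. A table of 8 arrays holds 2 DEX and 2 vehicle arrays at Zeitgeber time (ZT, hours after lights on) 16, 2 DEX arrays and 1 vehicle array at ZT4, and 1 vehicle array with no time in its label. A second table, of another array design, holds 2 arrays labelled DEX and 2 labelled vehicle, with no time in the labels. No source used here gives the driver of CLKGR or the sex, age and number of flies per sample, and nothing says that replicates came from separate flies, so the p-values below measure only the spread between these arrays.

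The respiratory chain moves electrons from NADH through complex I, complex III and complex IV to oxygen, and complex V uses the resulting proton gradient to make ATP. Most subunits are encoded in the nucleus and a few in the mitochondrial genome, and photoreceptors and neurons of the fly head depend on this supply. Several Drosophila subunit genes have a second copy, and many of these copies are known for expression in the testis. Roles of single subunits named below are those of their mammalian counterparts.

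All levels below are on a log2 scale, and levels of different probe sets are not strictly comparable, because probes differ in how well they bind. No array pair held identical values. The ZT16 vehicle replicate 1 stood somewhat apart, with a mean correlation with the other 7 arrays of 0.945, against 0.952 to 0.969 for those arrays. On the 4-array table the clock gene tim, a direct target of CLK, was lower on the arrays labelled DEX by a log2 change of -3.80 (limma adjusted p = 0.0246). On the timed arrays tim had a log2 change of 3.21 with DEX, and even this did not pass (limma adjusted p = 0.304). Failing the threshold on these arrays therefore does not show that a gene is unchanged. The direction of DEX effects on the 4-array table thus goes by labels that tim goes against. Between the times, ZT16 minus ZT4, tim had a log2 change of -1.27 on the timed arrays (limma adjusted p = 0.990). Marker genes of head cells differed in mean level on the 8 arrays. Neuronal genes had 5.59 (elav), 5.45 (Snap25), 4.73 (nSyb), 3.45 (para) and 2.73 (brp). Of these, brp lay below 2.78, the level under which probe sets were not tested. Photoreceptor genes had 10.59 (Arr2), 8.64 (Arr1), 6.54 (trp), 4.27 (chp) and 3.52 (inaD).

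Most of the 45 subunit genes had levels near the top of the head samples, and complexes IV and V lay above complex I. On the 8-array table the median of the gene means was 8.53 for complex IV (7 genes), 8.34 for complex V (10 genes), 7.62 for complex III (3 genes) and 6.29 for complex I (25 genes). As percentiles of all 18769 probe sets these medians stood at 98.3, 98.2, 97.3 and 93.8, in the same order, and 40 of the 45 genes lay above the 90th percentile. Among the 45 genes, by brightest probe set, the lowest of complexes IV and V, ATPsyngamma with 7.43, lay above the highest of complex I, ND-MNLL with 7.35. Dimmer probe sets of ATPsyngamma (6.83), COX7B (7.12), ATPsynbeta (5.24) and COX7C (2.44) did not. Outside the symbol rule, the complex V genes blw, sun and knon had 8.57, 3.28 and 2.85. The complex III genes RFeSP, Cyt-c1, ox and Cyt-c1L had 6.22, 6.90, 7.06 and 3.06, all below the complex III median of 7.62. On single arrays the medians of the 45 genes also put complexes IV and V above complex I. They lay between 8.42 and 8.76 for complex IV, 8.18 and 8.53 for complex V, and 6.19 and 6.50 for complex I. These are bulk heads, in which fewer cells of a type and less RNA per cell cannot be told apart.

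Within complex I the core subunits among the members, ND-75, ND-51 and ND-20, were not the brightest on the 8-array table. On the 4-array table they had 5.28, 6.53 and 5.75, beside a complex I median of 5.75. The levels that follow are from the 8-array table. ND-75, the large iron-sulfur subunit that takes part in electron transfer from NADH, had a mean level of 5.30 ± 0.14 (SD, n = 8). ND-51, the flavin-bearing subunit that binds NADH, had 5.74 ± 0.35, and ND-20, at the end of the iron-sulfur chain, had 6.40 ± 0.26. Small accessory subunits of the membrane arm stood higher, with ND-MNLL at 7.35 ± 0.15 and ND-PDSW at 7.21 ± 0.21. The 10 genes of the arm in the matrix had a median of 6.06 and the 14 of the membrane arm 6.51, a grouping made after the values were seen. ND-ACP, the mitochondrial acyl carrier protein, belongs to neither group here and had 6.92 ± 0.19. The lowest members were ND-B8 at 2.97 ± 0.15 and ND-B12 at 3.71 ± 0.05, with ND-18, an accessory subunit of the matrix arm, at 4.85 ± 0.23. ND-B8 thus lay close to the level of 2.78 below which probe sets were not tested.

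Complexes IV and V were more even. The 7 genes of complex IV ran from COX8 at 7.87 ± 0.18 (SD, n = 8) to COX5B at 9.03 ± 0.11, the highest of the 59. Between them lay COX5A (8.27), COX7C (8.29), COX7B (8.53), COX4 (8.65) and COX7A (8.78). No order is read between COX5A (SD 0.14) and COX7C (SD 0.15), or between COX4 (SD 0.18) and COX7A (SD 0.13). These SDs are over the arrays and do not cover how well different probe sets bind. In complex V the catalytic subunit ATPsynbeta had 8.69 ± 0.22 and the ring subunit ATPsynC 8.62 ± 0.29. The stalk subunit ATPsynO (OSCP) had 8.57 ± 0.13 and the membrane subunit ATPsynF had 8.78 ± 0.18. The rotor subunits ATPsyngamma and ATPsyndelta were the lowest of the complex, at 7.43 ± 0.18 and 7.63 ± 0.14. In complex III, UQCR-6.4 had 8.58 ± 0.12, UQCR-14 had 7.62 ± 0.17 and UQCR-Q had 5.30 ± 0.13.

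**Figure D1:**
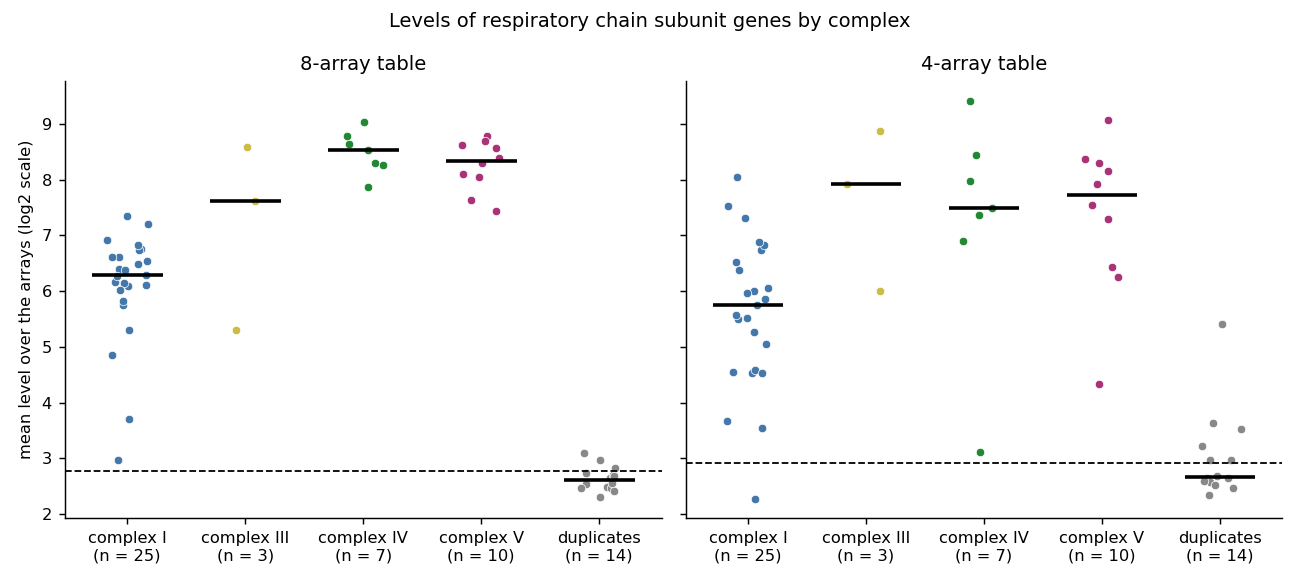
Each point is 1 gene, at its mean level over the arrays of a table (y axis, log2 scale), for the 8-array table (left) and the 4-array table (right). Black bars are medians over the genes of a complex or of the duplicates, and the dashed line is the level below which probe sets were not tested (2.78 and 2.92). Each gene is shown by its brightest probe set. On the 8-array table the points of complexes IV and V lie above all of complex I and the duplicates lie at the bottom. The complexes overlap on the 4-array table.

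On the second array design complex I again had the lowest median, and among genes of the symbol rule the order of the other complexes was reversed. The place of complex III rests on 3 genes. Outside the rule, its genes RFeSP, Cyt-c1, ox and Cyt-c1L had 5.38, 6.60, 7.62 and 2.61 there, all below the median of those 3 genes. Medians there were 7.92 for complex III, 7.73 for complex V, 7.49 for complex IV and 5.75 for complex I, and the genes of all 4 complexes overlapped in level. Across the 45 genes, which are not independent replicates, the mean levels of the 2 designs had Pearson's r of 0.61 and Spearman's rho of 0.59. Of all 59 genes, 43 differed by less than 1 between designs and 3 differed by more than 3. COX7C had 8.29 ± 0.15 on the 8-array table and 3.12 ± 0.08 on the 4-array table (SD, n = 8 and n = 4). ATPsynbeta had 8.69 on the 8-array table and 4.33 on the 4-array table, and UQCR-Q had 5.30 on the 8-array table and 8.87 on the 4-array table. The spread between arrays of 1 table, at most 0.22 for these 3 genes, was far smaller than these gaps. The tables differ in design, probe sets and samples at once, and these cannot be told apart.

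Probe sets of 1 gene on the same array also differed. COX7C has a second probe set at 2.44 on the 8-array table, and the second one of ATPsynbeta had 5.24. COX7B was read at 8.53, 7.12 and 2.56 by its 3 probe sets. For ND-ACP the 3 levels were 6.92, 5.92 and 5.77, and for ATPsyngamma the pair gave 7.43 and 6.83. With every probe set of the members in place of the brightest, the 8-array medians of complexes IV and V were 8.28 and 8.20.

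The duplicates were close to the lowest levels that the arrays give. On the 8-array table the 14 genes had a median of 2.60, at percentile 23.5 of all probe sets, and ran from ATPsynGL at 2.30 ± 0.02 to ATPsynepsilonL at 3.09 ± 0.16 (SD, n = 8). ATPsynCF6L (2.97), ATPsynepsilonL and UQCR-14L (2.83) passed the filter on low levels, and the other 11 did not. These levels are near the floor of the method, and whether any of the 11 is expressed in heads is not detectable at this signal. On the 4-array table the median was 2.67, 6 of 14 passed, and ATPsynbetaL, named after the catalytic subunit, stood out at 5.41 ± 0.11 (SD, n = 4).

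For 10 duplicates the gene they are named after, called the parent here, is also a member. A duplicate below the filter level of 2.78 has no level that can be ranked, so its distance from the parent is given as a bound, from that level to the mean of the parent. COX5BL had 2.48 ± 0.04 and its parent COX5B 9.03 ± 0.11 (SD, n = 8), which puts the duplicate lower by at least 6.25. COX7AL, ATPsynbetaL and COX4L lay at least 5.87 below their parents. The bound was 3.96 for ND-B14.5AL and 3.63 for ND-20L, and among these pairs it follows the level of the parent alone. ND-51L2 and ND-51L1, which fall outside the rule for named genes and were added after their values were seen, lay at least 2.97 below ND-51. The other 2 duplicates passed the filter, and ATPsynCF6L differed from ATPsynCF6 by -5.33 and UQCR-14L from UQCR-14 by -4.79. In all 10 pairs no array read the duplicate as high as the parent on the 8-array table. On the second design, 9 of 10 duplicates were lower. The exception was ATPsynbetaL with 5.36, 5.35, 5.37 and 5.58, against 4.10, 4.49, 4.36 and 4.35 for ATPsynbeta, the gene whose own level differed between designs. These are differences between probe sets of 2 genes and carry no test.

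**Figure D2:**
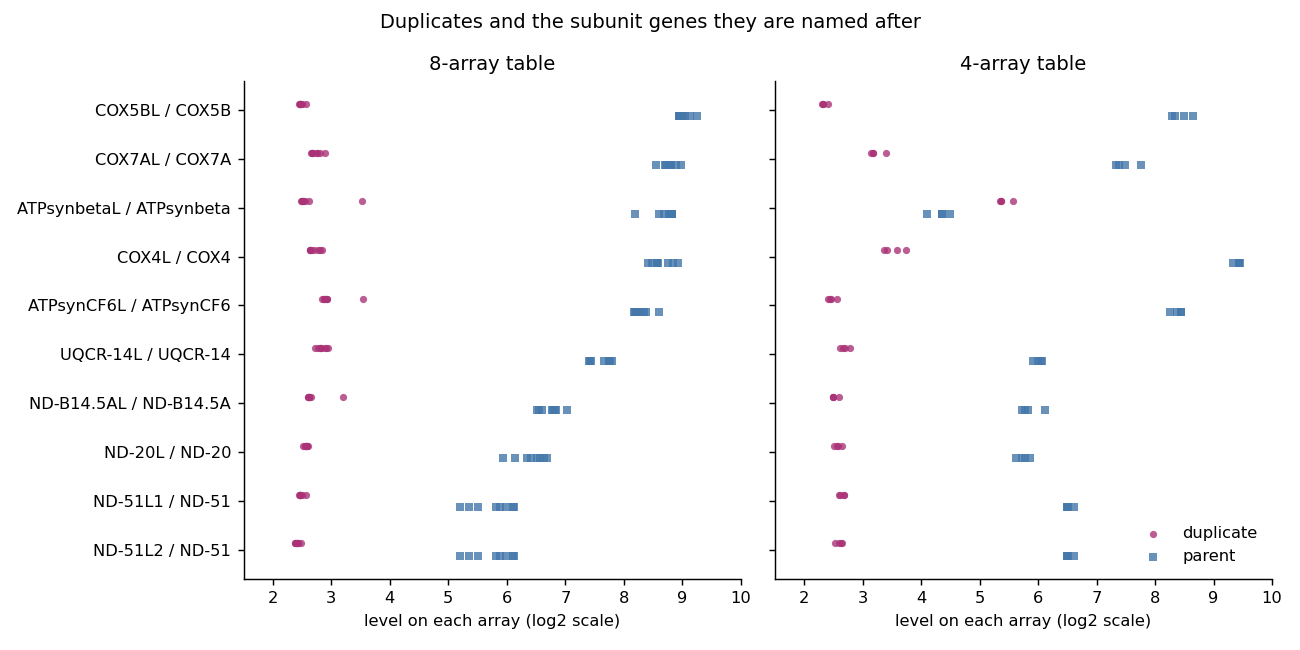
Levels on each array (x axis, log2 scale) of 10 duplicates (circles) and of the subunit genes they are named after (squares), on the 8-array table (left) and the 4-array table (right). The pairs are sorted by the 8-array level of the parent, from 9.03 for COX5B to 5.74 for ND-51, and circles below 2.78 on the left panel have no order. Only the pair of ATPsynbetaL and ATPsynbeta turns round on the 4-array table, and single circles to the right of their group on the 8-array table are from ZT16 vehicle replicate 1.

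Chromosomes were compared as a description, with no test. None of the 14 duplicates lies on the X chromosome, against 10 of the 45 subunit genes (22.2%) and 2197 of 13962 protein-coding genes of the gene table (15.7%). For ND-20, ND-B14.5A and UQCR-14 the parent is on the X chromosome and the duplicate on an autosome. In 9 of 10 pairs the duplicate spans a shorter stretch of the genome than its parent. The pair COX4L and COX4, for example, spans 730 and 1353 bases. The exception is ND-51L1, with 2143 bases against 1916 for ND-51.

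A few duplicates were high on 1 array. On ZT16 vehicle replicate 1, ATPsynbetaL had 3.52, against 2.48 to 2.62 on the other arrays. ATPsynCF6L had 3.54 there, against 2.84 to 2.92, and ND-B14.5AL had 3.19, against 2.59 to 2.65. This is the array that stood apart, and its median over all probe sets was 3.01, against 2.88 to 2.93 on the other arrays. A gap of more than 0.5 above all other arrays was seen for 3 of 14 duplicates (21.4%), and for 0 of the 45 subunit genes. The share was 0.879% of the 7508 probe sets below the filter and 1.74% of the 11261 above it, where ATPsynCF6L lies. Of the 14 duplicates, 10 were highest on this array, as were 49.7% of the probe sets below the filter. Of 5 male germline markers 4 lay below the filter, and the summed level of all 5 on the log2 scale was also highest on this array, at 5.15, against 4.98 to 5.05 on the other arrays. Over the 8 arrays bam ran from 2.63 to 2.86, Mst87F from 2.46 to 2.60, can from 2.61 to 2.75, betaTub85D from 2.58 to 2.71 and dj from 2.89 to 3.13. The part of germline RNA in the high values was not tested.

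The next comparison set ZT16 against ZT4 on the 7 timed arrays, with treatment in the fit. No subunit gene passed the test for a change with time. Of the 59 members 48 passed the filter and were tested, all 45 subunit genes and 3 duplicates, and 0 of 48 passed an adjusted p of 0.05 in limma, where the share was 0% of all 11261 probe sets. At an unadjusted p under 0.05 there were 0 of 48 members and 3.57% of all probe sets. The median log2 change was 0.04 over the members and 0.02 over all probe sets, with 29 of 48 members above 0, against 54.7% of all probe sets. By complex it was 0.03 for complex I, 0.05 for complex III, 0.08 for complex IV and 0.00 for complex V.

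The confidence intervals (95%) ran from -0.78 to 0.88 on the log2 scale used here. All 48 lay within 2-fold in either direction, against 87.5% of all probe sets, and 29 of 48 within 1.5-fold, against 57.8% of all probe sets. If log2 of the deposited values is the right scale, 41 of 48 lay within 2-fold and 5 of 48 within 1.5-fold. Changes of single genes, by brightest probe set, lay between -0.29 for ND-PDSW and 0.38 for ATPsynC. Other probe sets of ND-ACP had -0.37 and 0.12, beside 0.14 for its brightest.

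ATPsynC, which forms the proton-driven ring of complex V, had the smallest p. Its levels at ZT16 were 8.89 and 8.75 in DEX heads and 8.71 and 9.03 in vehicle heads, and at ZT4 they were 8.55 and 8.28 in DEX heads and 8.53 in the vehicle head sample. The 4 ZT16 arrays all lay above the 3 ZT4 arrays. The log2 change was 0.38 ± 0.19 (SE), or 1.30-fold, with a limma p of 0.0819 and an adjusted p of 0.990. UQCR-14, a subunit of complex III, had 7.75 and 7.80 in DEX heads and 7.75 and 7.77 in vehicle heads at ZT16, against 7.40 and 7.44 in DEX heads and 7.67 in the vehicle sample at ZT4. These groups did not overlap either, with a change of 0.25 ± 0.18 (SE). COX7A, a small subunit of complex IV, was the third gene without overlap, at 0.19 ± 0.18. The count was 3 of 48 higher and 0 lower, where 2.44% and 2.25% of all probe sets did not overlap.

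Other genes with the smallest p of their complex were lower at ZT16 by estimate, without passing. In complex I these were ND-PDSW at -0.29 ± 0.21 (SE), ND-B14.5B at -0.28 ± 0.21 and ND-B18 at -0.25 ± 0.21. All are of the membrane arm, as is ND-SGDH, the highest estimate of complex I at 0.25. In complex V, ATPsynbeta had -0.20 ± 0.21 and the stalk subunit ATPsynCF6 -0.18 ± 0.18. ND-PDSW, ND-B18 and ATPsynbeta were lowest on ZT16 vehicle replicate 1 and highest on the lone ZT4 vehicle array. Within DEX heads these 5 estimates were, in the order named, -0.13, -0.29, -0.11, -0.07 and -0.10. COX4 had 0.22 ± 0.18 and COX7B 0.10 ± 0.19. UQCR-Q had 0.05 ± 0.17 and the duplicate UQCR-14L 0.04 ± 0.07.

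In DEX heads alone, 2 arrays at ZT16 against 2 at ZT4, the arrays that alone give the time effect once the lone ZT4 vehicle array is left out, 37 of 48 members had a change above 0, against 48.3% of all probe sets, with a median of 0.12. None passed in limma, where 0.00888% of all probe sets did, and 0 reached an unadjusted p under 0.05 (3.35%). The largest change was 0.56 ± 0.33 (SE) for ND-SGDH, a membrane arm subunit, with a limma p of 0.140. Its levels were 6.91 and 6.93 in DEX heads at ZT16 and 6.49 and 6.23 in DEX heads at ZT4. The 2 times did not overlap for 24 members, 21 higher at ZT16 (13.1% of all probe sets) and 3 lower (16.8%).

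DEX against vehicle was compared on the same 7 arrays, 4 DEX and 3 vehicle, with time in the fit. No subunit gene passed the test for a change with DEX. In limma, 0 of 48 members passed (0% of all probe sets), and 0 reached an unadjusted p under 0.05 (3.39%). The median log2 change was -0.08, against -0.01 over all probe sets, and 36 of 48 members had a change below 0, against 54.3% of all probe sets. Medians by complex were -0.05 for complex I, -0.09 for complex III, -0.08 for complex IV and -0.11 for complex V. All 48 confidence intervals lay within 2-fold (88.0% of all probe sets) and 27 within 1.5-fold (58.8%), with bounds from -0.80 to 0.96. With log2 of the deposited values 43 of 48 lay within 2-fold and 3 of 48 within 1.5-fold.

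ND-75 had the smallest p. Its levels were 5.55, 5.35, 5.33 and 5.38 on the DEX arrays, against 5.20, 5.19 and 5.12 on the vehicle arrays. The groups did not overlap, and the log2 change was 0.25 ± 0.16 (SE), or 1.19-fold, with a limma p of 0.172 and an adjusted p of 0.994. ND-51, which binds NADH next to ND-75 in the complex, had the highest estimate, 0.28, and its levels overlapped between groups: 5.98, 6.12, 6.11 and 5.36 with DEX, against 5.19, 5.88 and 5.81 with vehicle. ND-75 was the only member higher without overlap (1.99% of all probe sets), and ATPsynO and COX5B were lower without overlap (2.52%). ATPsynO had -0.21 ± 0.18 (SE), and COX5B had -0.10 ± 0.16.

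The lowest estimate was that of ATPsynD, a subunit of the peripheral stalk of complex V, at -0.27 ± 0.22 (SE). Its levels were 7.95, 8.19, 7.98 and 7.70 with DEX, against 8.06, 8.10 and 8.50 with vehicle. Only the last of these, the ZT4 vehicle array, lay above all DEX arrays. At ZT16 alone the change was -0.01. ND-MNLL had -0.19 ± 0.19 and ND-B8 -0.17 ± 0.11 on the 7 arrays, and -0.05 and -0.01 at ZT16 alone. The remaining genes with the smallest p of their complex were COX7C at -0.15 ± 0.20, COX5A at -0.11 ± 0.19, UQCR-Q at -0.10 ± 0.17, UQCR-14 at -0.09 ± 0.18 and UQCR-14L at -0.03 ± 0.07. The duplicate ATPsynCF6L had -0.17 ± 0.16, and 0.03 without ZT16 vehicle replicate 1, the array on which it was high.

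Within ZT16 the DEX effect had a median of -0.0023, which is also the value left when the lone ZT4 vehicle array is dropped from the 7-array fit, and 23 of 48 members were above 0, against 44.3% of all probe sets. In limma 0 of 48 passed (0% of all probe sets), and 0 reached an unadjusted p under 0.05 (2.8%). The treatments did not overlap for 9 members higher with DEX (10.1% of all probe sets) and 4 lower (13.8%). Complex I held the highest estimates, ND-SGDH at 0.53 ± 0.33 (SE), ND-51 at 0.52 ± 0.38 and ND-18 at 0.38 ± 0.24. For ND-SGDH the levels were 6.91 and 6.93 with DEX, against 6.06 and 6.72 with vehicle. ND-18 had 5.17 and 5.11 with DEX, against 4.60 and 4.93 with vehicle. In both genes, and in ND-51 with 5.19, the lower vehicle value was from ZT16 vehicle replicate 1. Over the 7 timed arrays that array was the lowest for 9 of 25 complex I genes (36%), against 18.3% of all tested probe sets.

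Within ZT4 the members lay mostly below 0. The median DEX effect was -0.23, against 0.01 over all probe sets, and 43 of 48 members were below 0, against 44.5% of all probe sets. Complex V had -0.30, complex I -0.24, complex III -0.23 and complex IV -0.14. These are changes of the brightest probe sets, and other tested probe sets of the same genes differed in both directions. They had 0.18 for ATPsynbeta (brightest -0.04), 0.03 for ATPsyngamma (brightest -0.21) and -0.15 and -0.06 for ND-ACP (brightest -0.27). ND-B17 had -0.65 (brightest -0.01) and COX7B -0.25 (brightest -0.01). No member passed in limma (0% of all probe sets), and 1 of 48, ND-B8, reached an unadjusted p under 0.05 (4% of all probe sets). ND-B8 had 2.85 and 2.86 with DEX, against 3.27 with vehicle, a change of -0.42 ± 0.15 (SE) with a limma p of 0.0307 and an adjusted p of 1.00. ATPsynD had 7.98 and 7.70 with DEX, against 8.50 with vehicle, or -0.66 ± 0.34 (SE). The DEX arrays lay below the vehicle array for 34 members (30.8% of all probe sets) and above it for 2 (31.6%).

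The ZT4 comparison has a single vehicle array, so its own spread is unknown and was taken from the other groups. That array was the highest of the 7 for 17 of the 45 subunit genes (37.8%) and for 11.0% of all tested probe sets, and in complex V for 7 of 10. ZT4 DEX replicate 2 was the lowest for 18 of 45 (40%), against 9.92% of all tested probe sets. The median deviation of the 45 genes from their own means was 0.15 on the lone vehicle array, -0.16 on ZT4 DEX replicate 2 and -0.02 on ZT4 DEX replicate 1. Without ZT4 DEX replicate 2 the median DEX effect at ZT4 was -0.11.

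**Figure D3:**
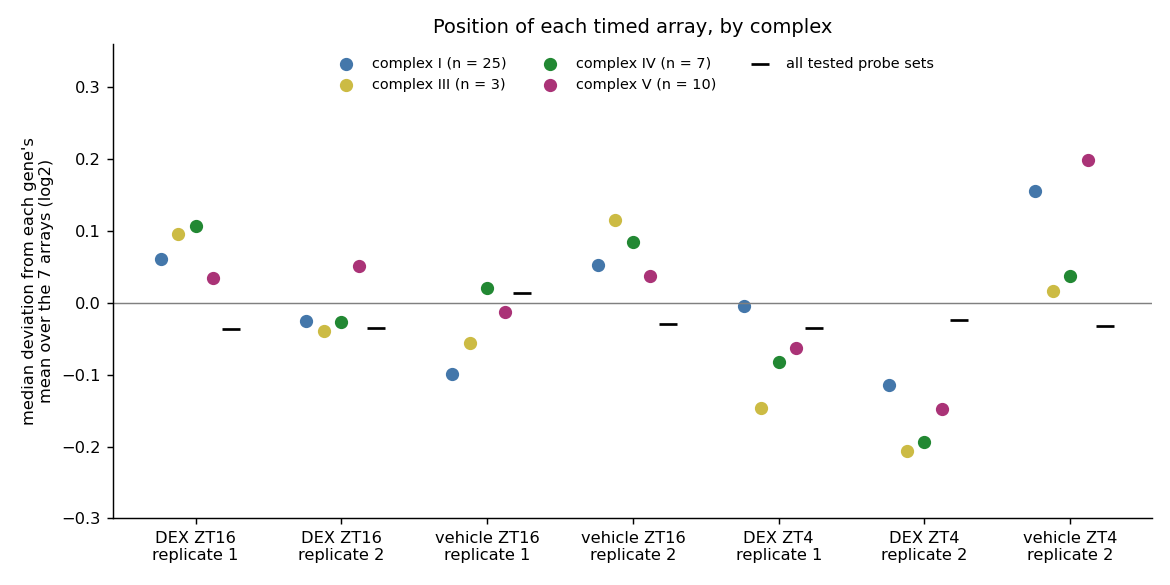
For each of the 7 timed arrays (x axis), the points give the median over the genes of a complex of the deviation from each gene's mean over the 7 arrays (y axis, log2), without the duplicates, and black dashes give the same for all tested probe sets. The lone ZT4 vehicle array lies highest for complexes I and V (0.15 and 0.20), and ZT4 DEX replicate 2 lies lowest for all 4 complexes (-0.11 to -0.21).

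The same arrays were read for other gene groups. Of 31 cytoplasmic ribosomal protein genes, 3 had a DEX effect above 0 at ZT4, and their median was -0.13. The 68 mitochondrial ribosomal protein genes had a median of 0.00. The summed level of 6 fat body markers on the log2 scale was 15.18 and 15.88 in DEX heads and 16.23 in the vehicle sample at ZT4. Of 5 tested markers 1 had a DEX effect above 0 at ZT4, with a median of -0.85. Replicates of a group also differed in this sum, at ZT16 with 15.54 and 16.11 in DEX heads and 16.05 and 14.88 in vehicle heads. Photoreceptor markers (5 genes) summed to 10.75 and 10.77 with DEX and 10.67 with vehicle at ZT4, and neuron markers (5 genes) to 6.97 and 7.01 with DEX and 7.05 with vehicle. The part of tissue composition in the ZT4 values was not tested.

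No member passed the test of a difference between the DEX effects at the 2 times. The difference, ZT16 minus ZT4, had a median of 0.29 over the members and -0.03 over all probe sets, and 40 of 48 members were above 0, against 45.2% of all probe sets. None passed in limma (0% of all probe sets), and 0 reached an unadjusted p under 0.05 (2.72%). The smallest p was 0.0778 for ND-B8, at 0.41 ± 0.19 (SE), with a limma adjusted p of 0.997. The mean level of ND-B8, 2.97, was close to the filter level of 2.78. ND-SGDH had 0.78 ± 0.52 and ATPsynD 0.65 ± 0.43. The intervals are wide, with 5 of 48 inside 2-fold, against 43.3% of all probe sets.

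On the second array design, 50 of the 59 members passed the filter, and none passed the test between the 2 arrays labelled DEX and the 2 labelled vehicle. In limma 0 of 50 passed, where 0.0119% of 8379 probe sets did, and 0 reached an unadjusted p under 0.05 (5.42%). The median was -0.02, against -0.05 over all probe sets, and 29 of 50 lay below 0, against 63.5% of all probe sets. All 50 confidence intervals lay within 2-fold (89.9% of all probe sets) and 20 within 1.5-fold (69.2%), and with log2 of the deposited values 36 of 50 lay within 2-fold. Estimates ran from -0.26 for COX5B to 0.26 for COX7A.

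COX7A had 7.76 and 7.49 on the arrays labelled DEX, against 7.38 and 7.34 on those labelled vehicle, without overlap. COX5B had 8.29 and 8.33 with the DEX label, against 8.65 and 8.49 with the vehicle label. It was also lower with DEX without overlap on the timed arrays, while tim had opposite directions in the 2 tables. In all, 2 members were higher without overlap (12.1% of all probe sets) and 12 lower (31.4%). The smallest p was that of COX6AL2, a duplicate of the complex IV subunit VIa, with 2.92 and 2.90 on the arrays labelled DEX, against 2.98 and 3.12 on those labelled vehicle. Its change of -0.14 ± 0.07 (SE) had a limma p of 0.102 and an adjusted p of 0.778.

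The other genes with the smallest p of their complex had estimates no larger than these. In complex IV, COX7C had -0.11 ± 0.08 (SE) and COX7AL -0.13 ± 0.10, both close to the floor on this design. ATPsynO had -0.20 ± 0.22, ATPsyngamma 0.19 ± 0.23 and ATPsynGL -0.10 ± 0.11. In complex I, ND-B12 had 0.21 ± 0.18, ND-B14.5A 0.17 ± 0.22 and ND-B18 0.12 ± 0.16. Complex III lay near 0, with UQCR-14 at -0.05 ± 0.21, UQCR-6.4 at -0.06 ± 0.26 and UQCR-Q at 0.00 ± 0.23.

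**Figure D4:**
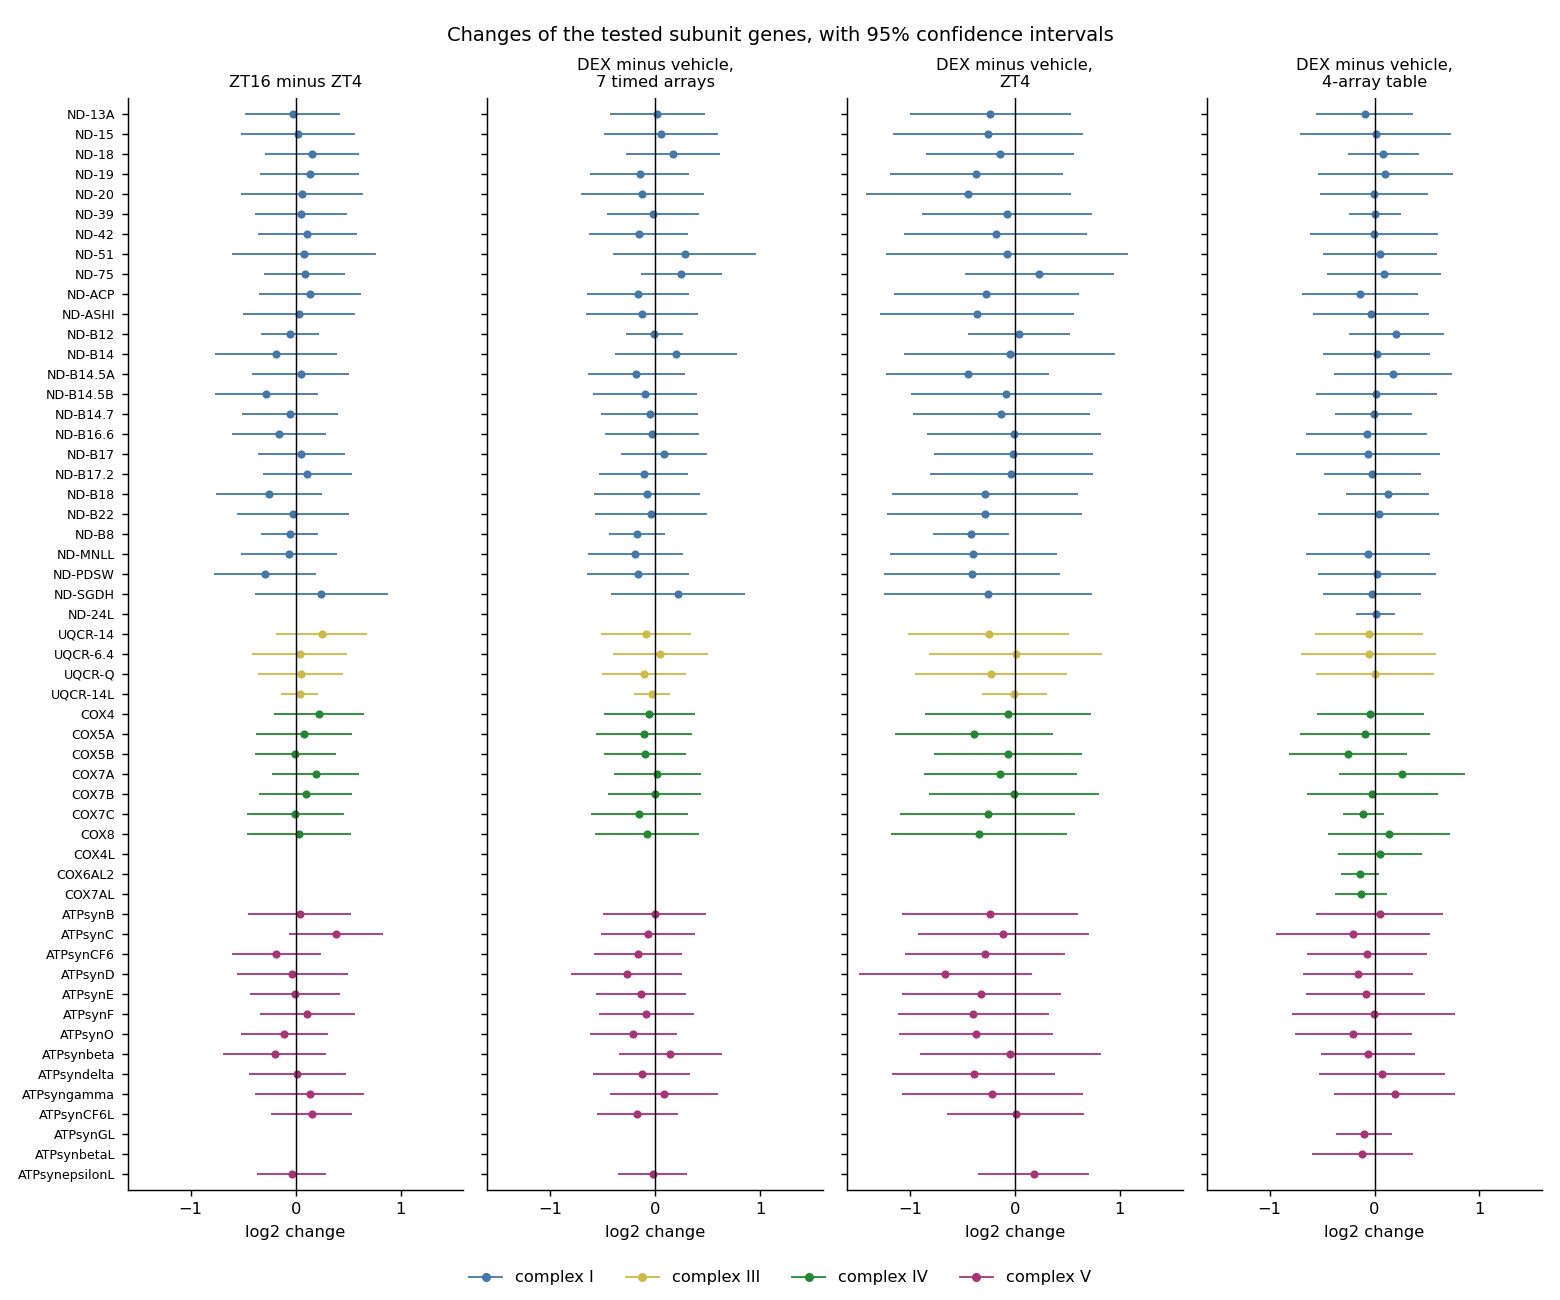
Log2 change (x axis, point) with its 95% confidence interval (line) for each tested member (y axis, coloured by complex), for ZT16 minus ZT4, DEX minus vehicle on the 7 timed arrays, DEX minus vehicle at ZT4, and DEX minus vehicle by label on the 4-array table. A gap means that the gene was below the filter. No member passes an adjusted p of 0.05 in any panel, and at ZT4 43 of 48 points lie left of 0.

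Genes of the same metabolism outside the symbol rule were read as well, 38 tested on the timed arrays and 31 on the 4-array table. They belong to complex II, other subunits and assembly factors, porin and carriers, the tricarboxylic acid cycle and mitochondrial biogenesis. No cytochrome c gene was among those read. None of the tested genes passed in the 7 comparisons. Their medians were 0.01 for time, -0.04 for DEX on the timed arrays, -0.11 for DEX at ZT4 and -0.04 on the 4-array table. The ATP/ADP carrier sesB, at a mean level of 9.42, had a time effect of 0.29 ± 0.21 (SE), and Idh3g, of the tricarboxylic acid cycle, 0.32 ± 0.24. The uncoupling protein gene Ucp4A, at a low level of 3.09, had -0.52 ± 0.17 for time, with a limma p of 0.0189 and an adjusted p of 0.990, and -0.34 ± 0.17 for DEX. For DEX, sun, a subunit of complex V, had -0.21 ± 0.10 and Idh3b 0.29 ± 0.16. On the 4-array table Scox, which helps assemble complex IV, had -0.50 ± 0.25, Marf -0.22 ± 0.09 and mtTFB2 -0.14 ± 0.07.

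Photoreceptor markers differed more between the times than the subunit genes did by estimate. Their summed level at ZT16 was 11.05 to 11.70 with DEX and 11.06 to 11.42 with vehicle, against 10.67 to 10.77 on the ZT4 arrays, and 5 of 5 tested markers were higher at an unadjusted limma p under 0.05 for time (1.58% of all probe sets were) without passing the adjusted threshold. Their median time effect was 0.69, beside 0.04 for the subunit genes and duplicates tested. The residual SD was 0.16 for the tested members and 0.21 for all probe sets (medians). The part of photoreceptor RNA in the levels of the subunit genes was not tested.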

How the data were processed

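The values are intensities that the authors deposited for 2 array designs, 1 table of 8 and 1 of 4 arrays; GCRMA, without a version, is the tool that the submitters' processing notes list. The natural log of each deposited intensity reached 15.5 and was read as the log2 level, since log2 would reach 22.36; with log2 every change would be 1.44 times as large and every p the same. That reading was chosen after the values were seen.

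Probe sets with 1 annotated gene were used, and the brightest probe set stands for a gene. All 59 names were found in a RefSeq gene table; no coordinates are given, as no build is named with the data. Probe sets with a mean above the 40th percentile (11261 of 18769 and 8379 of 13966) were tested with limma (version 3.58.1, R version 4.3.3), by moderated statistics with a mean-variance trend and Benjamini-Hochberg adjustment over all of them and a threshold of 0.05. Time and DEX came from an additive fit over 7 timed arrays, and effects within a time from a fit with 1 mean per group. The tables were tested apart. The fits were tested on simulated data. Precision is limited by how few arrays each group has.

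Named genes are the 3 members of each complex with the smallest p in the time comparison and both DEX comparisons, duplicates with their parents, the highest and lowest of each complex, and 3 companion genes per comparison. Further genes with extreme estimates within a time were added after their values were seen. The members and lists were chosen with earlier results of these data known. Alternatives were normalization, filters, log base, the mean-variance trend, array weights, other probe sets, the replicate number as a block, and leaving out each array.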

Additional observations from a re-analysis of the deposited data

How the results depend on the processing

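No member passed the adjusted threshold of limma in any of 110 alternative counts, which covered the log base, quantile normalization, median centring, no filter, a stricter filter, no mean-variance trend, array weights, all probe sets of the members, the subunit genes without the duplicates (added after the data were seen), the replicate block, all 8 arrays and leaving out each array. At an unadjusted p under 0.05 the count was at most 6, for DEX at ZT4 without the mean-variance trend. Of 110 alternative medians, 95 stayed within 1 SD of array medians of the value in the text. With log2 of the deposited values the median DEX effect at ZT4 was -0.33 and the difference between times 0.42, by the scale alone. With quantile normalization the DEX effect at ZT16 was -0.084, the difference 0.19 and the DEX effect on the 4-array table -0.13, and median centring gave 0.049 on that table; the cause was not tested. Without the filter the DEX effect at ZT4 was -0.14 and the difference 0.18, as the dim duplicates then entered. With all probe sets the median levels of complexes IV and V were 8.28 and 8.20 on the 8-array table, and that of complex V 7.54 on the 4-array table. Leaving out 1 array, the medians ran from -0.016 to 0.12 for time, -0.13 to -0.0023 for DEX on the timed arrays, -0.018 to 0.058 for DEX at ZT16, -0.29 to -0.11 for DEX at ZT4, 0.077 to 0.17 for time in DEX heads, 0.21 to 0.34 for the difference and -0.058 to 0.029 on the 4-array table. Without the lone ZT4 vehicle array the time effect (0.12) is by construction that in DEX heads and the DEX effect (-0.0023) that at ZT16, so these 2 values do not check the array. Of 740 alternative values of named genes, 43 had the opposite sign and 0 passed. Same-numbered arrays did not deviate together (correlations of 0.07, -0.01 and -0.24). With so few arrays per group this cannot show whether the numbers pair the samples. With the replicate block the medians were 0.04 for time, -0.08 for DEX, -0.21 for DEX at ZT4 and 0.30 for the difference. No member passed with that block. On the 4-array table no paired analysis was possible because the groups share fewer than 2 replicate numbers given in the labels. The low signal of the duplicates limits what their values can show.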
